A study of Homo sapiens with 6 samples.

Results

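This account concerns 10 genes of fatty acid synthesis, elongation and desaturation, measured in HepG2 cells, a human liver tumour line, with and without boric acid. The members were taken by Ensembl transcript ID from a list that pairs each ID with a gene symbol, and all 10 IDs were found among the 65527 transcript probe sets of the deposited table. The list, and neither the table nor the reference annotation, is the source of the symbols. The treated group was exposed for 24 h to the weak acid of boron, boric acid, at 24 mM, the concentration that the labels call half-maximal inhibitory, and the control group was left untreated. Both groups grew in low-glucose DMEM with 10% fetal bovine serum and 25 mM HEPES. Each group had 3 arrays (replicates 1 to 3), 1 for each total RNA sample. The labels do not say that these came from separate cultures, so p-values describe how these samples vary, and that variation may be technical.

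In liver cells, new fatty acids are built from acetyl-CoA. ACLY makes cytosolic acetyl-CoA from citrate and ACSS2 makes it from acetate, FASN joins the units into palmitate, ELOVL6 lengthens palmitate to stearate, and SCD turns saturated chains into monounsaturated ones such as oleate. FADS2, ELOVL5 and FADS1 act in turn on dietary polyunsaturated precursors on the way to arachidonic acid and its omega-3 counterparts. Control of the pathway is classically ascribed to SREBF1, which encodes the membrane-bound factor SREBP-1, released by cleavage when sterols are low and induced by insulin, and to MLXIPL, which encodes the glucose-responsive factor ChREBP.

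Signals are log2 values made by the authors with RMA, which equalises the distribution of values between arrays, so every change is relative to the array as a whole. Array medians lay between 6.844 and 6.925. Fewer cells with a transcript and less of it in each cell cannot be told apart in such bulk RNA. The groups were compared with limma over the 33710 probe sets whose value exceeded 6.888, the median of the table, on at least 3 arrays. All 10 members exceeded it on all 6 arrays, so none entered the test through 1 group alone. A probe set was called changed at a Benjamini-Hochberg adjusted p under 0.05.

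After boric acid, 9 of the 10 genes were lower and none was higher. Of all tested probe sets, 19.2% were called lower and 23.0% higher. The 3 desaturases SCD, FADS2 and FADS1 fell at least 2-fold, against 4.45% of tested probe sets, and MLXIPL, ELOVL5, FASN, ELOVL6, SREBF1 and ACLY fell by less. ACSS2 was not called. At an unadjusted p under 0.05, limma gave the same 9 lower and 0 higher. The 9 called genes had to pass there too, so only ACSS2 could have changed this count. The share of all tested probe sets at that threshold was not counted, so the count adds no support to the calls. The median log2 fold change of the 10 genes was -0.68, against 0.02 over all tested probe sets, of which the range from the 5th to the 95th percentile was -0.97 to 0.81. In the 9 called genes every boric acid array lay below every control array, an arrangement found for 25.5% of tested probe sets. The members were chosen with earlier results of these data known, so these counts describe them and are no test of the list.

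**Figure D1:**
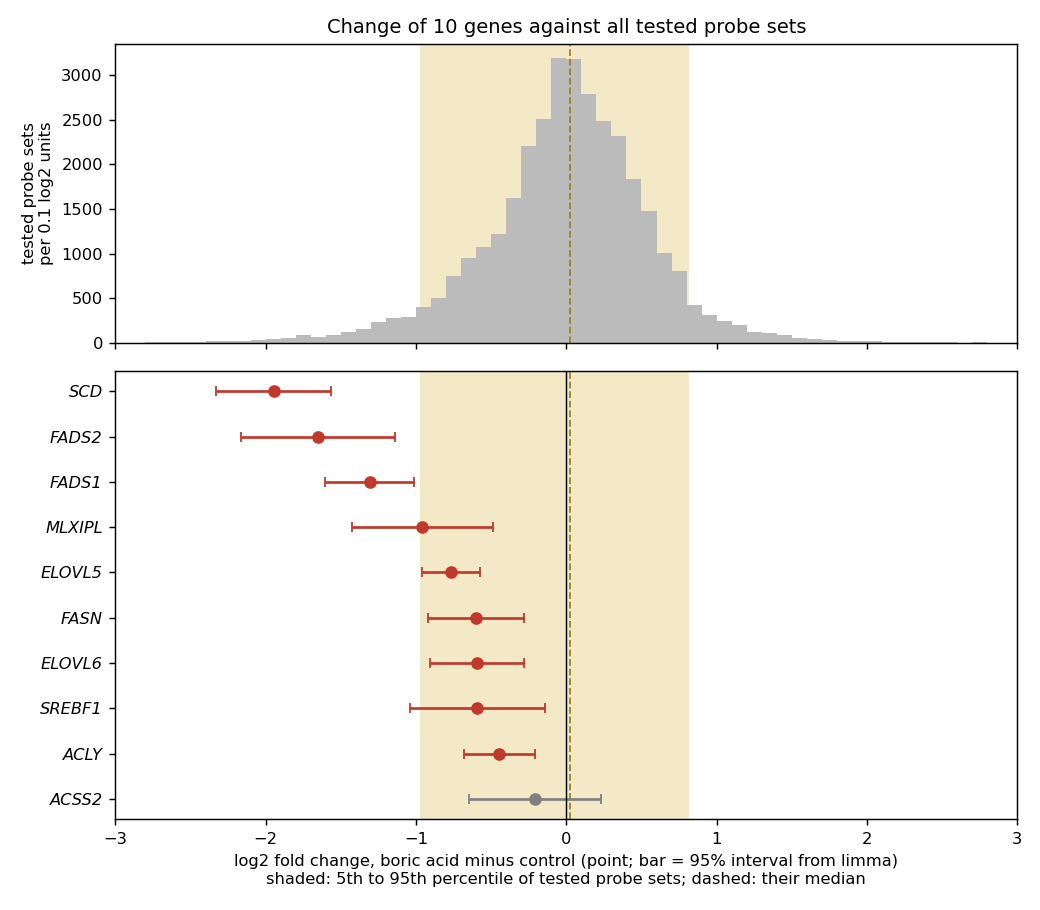
The upper panel counts tested probe sets by log2 fold change (boric acid minus control, in steps of 0.1), and the lower panel gives each gene's log2 fold change with its 95% interval from limma (3 arrays per group), red where called and grey where not. The shading runs from -0.97 to 0.81, the 5th to the 95th percentile of tested probe sets, and the dashed line is their median, 0.02. The axis stops at 3 on either side and leaves out 10 probe sets. SCD, FADS2 and FADS1 lie left of the shading and the interval of ACSS2 spans 0.

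The start regions of the genes at the centre of these results are shown first. SREBP-1 is known to act at such regions beside the factor NF-Y, which binds the CCAAT box. No binding or activity of these factors was measured, and a link between these sequences and the falls was not tested. RefSeq windows of GRCh38.p14, from 250 bases before to 50 bases after an annotated start, were held for 9 of the 10 genes (not FASN), in 12 windows, since ACLY, FADS2 and ACSS2 have a pair each. The deposited table does not say which start its transcripts use. The 4 windows below belong to the 3 desaturases, which changed most, and to ELOVL5, whose replicates were closest. Capitals mark the CCAAT box (CCAAT), the E box (CACGTG, the core of sites known to be bound by ChREBP and SREBP-1) and the GC box (GGGCGG, bound by SP1), each searched on both strands.
SCD, chr10:100346983-100347282, plus strand: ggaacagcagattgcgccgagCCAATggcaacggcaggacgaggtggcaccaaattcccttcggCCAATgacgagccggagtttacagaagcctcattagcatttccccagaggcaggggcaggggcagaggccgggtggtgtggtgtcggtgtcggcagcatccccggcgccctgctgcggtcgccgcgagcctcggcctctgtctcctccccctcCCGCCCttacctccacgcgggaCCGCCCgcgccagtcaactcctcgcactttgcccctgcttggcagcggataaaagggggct
FADS2, chr11:61816154-61816453, plus strand: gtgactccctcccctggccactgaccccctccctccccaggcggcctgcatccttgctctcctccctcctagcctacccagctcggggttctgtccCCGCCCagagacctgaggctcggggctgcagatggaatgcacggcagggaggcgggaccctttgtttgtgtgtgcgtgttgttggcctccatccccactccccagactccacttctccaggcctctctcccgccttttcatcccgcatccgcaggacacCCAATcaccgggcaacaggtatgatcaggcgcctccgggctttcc
FADS1, chr11:61816954-61817253, minus strand: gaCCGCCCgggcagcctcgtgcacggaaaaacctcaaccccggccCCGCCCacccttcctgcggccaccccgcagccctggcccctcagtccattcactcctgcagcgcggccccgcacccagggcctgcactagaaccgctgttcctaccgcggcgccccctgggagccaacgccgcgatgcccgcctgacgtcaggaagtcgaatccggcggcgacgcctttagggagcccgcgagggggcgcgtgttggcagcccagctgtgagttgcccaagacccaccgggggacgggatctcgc
ELOVL5, chr6:53348901-53349200, minus strand: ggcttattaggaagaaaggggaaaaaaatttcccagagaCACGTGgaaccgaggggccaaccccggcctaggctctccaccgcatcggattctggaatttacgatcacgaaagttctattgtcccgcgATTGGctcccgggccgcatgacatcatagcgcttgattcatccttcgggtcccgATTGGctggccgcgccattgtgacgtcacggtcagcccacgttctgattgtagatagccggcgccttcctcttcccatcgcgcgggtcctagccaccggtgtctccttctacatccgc

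No match overlaps another in these 4 windows. The SCD window holds 2 CCAAT boxes, which begin 229 and 186 bases before the start, and 2 GC boxes. The printed FADS2 window, at the start farther along the gene's strand, holds 1 CCAAT box, 5 bases past the start, and 1 GC box. It is shown because it holds matches, and the other FADS2 window has none of the motifs. FADS1 and FADS2 are neighbours on opposite strands and their 2 printed windows lie 500 bases apart. The FADS1 window has 2 GC boxes and no CCAAT box. ELOVL5 has 2 CCAAT boxes on the opposite strand, which begin 122 and 68 bases before the start, and an E box 211 bases before it. Counted by gene, since the pairs of windows of ACLY and of FADS2 overlap, 5 of the 9 genes had a CCAAT box in a window, 1 an E box and 8 a GC box. A gene with a pair of windows has more bases in which to match, so these counts are not comparable with shares of single windows. Of the 35116 windows in the RefSeq table, 34.6% held a CCAAT box, 7.26% an E box and 45.0% a GC box. GC content ran from 55.3% (ACSS2) to 73.3% (ACLY) in the windows of the members, against a median of 58.7% in all windows. No allowance was made for it. The core of the classical sterol regulatory element (TCACCCCAC) was in 0 of the 12 windows and in 0.43% of all windows. These matches describe letters in a 300-base window only. ACSS2, which was not called, had a CCAAT box in 1 of its windows as well.

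SREBF1 and MLXIPL, the transcription factor genes of the group, were both lower after boric acid, and the call of SREBF1 depended on the processing. MLXIPL (ENST00000313375.7) measured 9.296, 9.394 and 9.463 in control replicates 1, 2 and 3, and 7.936, 8.678 and 8.666 in the boric acid replicates. Boric acid replicate 1 stood below the other treated arrays, and all treated arrays were below the controls. The means were 9.38 ± 0.08 and 8.43 ± 0.43 (SD, n = 3), a log2 fold change of -0.96 (standard error 0.20, 95% interval -1.43 to -0.49, limma adjusted p = 0.0085), which left 51.5% of the control signal. Without boric acid replicate 1 the log2 fold change was -0.71 and the call held (limma adjusted p = 0.0016).

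SREBF1 (ENST00000261646.9) measured 8.313, 7.637 and 7.607 in the control replicates and 7.367, 7.192 and 7.223 in the boric acid replicates. Control replicate 1 was the high array, and the lowest control array still lay 0.24 above the highest treated one. The means were 7.85 ± 0.40 and 7.26 ± 0.09 (SD, n = 3), a log2 fold change of -0.59 (standard error 0.19, 95% interval -1.04 to -0.14, limma adjusted p = 0.042). Without control replicate 1 the log2 fold change was -0.36, still called at an adjusted p of 0.040 in limma. The call ended without boric acid replicate 2 or 3 (limma adjusted p = 0.10 in both, log2 fold changes -0.56 and -0.57), without control replicate 2 (0.052, at -0.70), with no signal filter (0.065, at -0.59) and with arrays centred on their medians (0.054, at -0.55), so the size of the fall changed little in these settings. The gene has several isoforms, and which of them this probe set reads is not given in the sources used here.

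ACLY and ACSS2, the enzymes that supply acetyl-CoA, differed in their calls, ACLY being lower and ACSS2 not called. The changes themselves differed by 0.24 on the log2 scale, and this difference overlapped between treated and control arrays (exact permutation test, two-sided p = 0.30, where 0.10 is the smallest the design allows). ACLY (ENST00000352035.6) measured 10.697, 10.479 and 10.504 in control cells and 10.207, 10.056 and 10.079 after boric acid. Replicate 1 was the highest array in each group, and the groups did not overlap. The log2 fold change of -0.45 (standard error 0.10, 95% interval -0.68 to -0.21, limma adjusted p = 0.011) was the smallest among the called genes and left 73.4% of the control signal.

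ACSS2 (ENST00000360596.6) measured 8.122, 8.092 and 7.986 in control cells, a narrow range, and 8.271, 7.487 and 7.822 after boric acid. Boric acid replicate 1 was above all 3 controls and the other treated arrays were below them, so the groups overlapped. The log2 fold change was -0.21 with a 95% interval from -0.65 to 0.23 (limma adjusted p = 0.41), which covers a fall as large as that of FASN as well as a small rise. Without boric acid replicate 1, it was -0.41 and was called (limma adjusted p = 0.032). The row of 1 other transcript ID holds the same 6 values as this probe set, and no other member has such a repeat.

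FASN, the synthase, and ELOVL6, which lengthens its product, fell by nearly equal amounts on average. FASN (ENST00000306749.3) measured 10.990, 10.606 and 10.761 in control cells and 10.387, 10.096 and 10.078 after boric acid. Replicate 1 was again the highest array of each group, and the groups stayed 0.22 apart. The log2 fold change was -0.60 (standard error 0.14, 95% interval -0.92 to -0.28, limma adjusted p = 0.011), a level 66.1% of control.

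ELOVL6 (ENST00000302274.7) measured 7.979, 7.639 and 7.802 in control cells and 7.367, 7.264 and 7.006 after boric acid. No treated array reached the lowest control. Its log2 fold change was -0.59 (standard error 0.13, 95% interval -0.91 to -0.28, limma adjusted p = 0.011). The changes of FASN and ELOVL6 differed by 0.004 on the log2 scale, against a pooled SD of 0.09 for that difference between arrays. Within replicate numbers 1, 2 and 3, the change of ELOVL6 minus that of FASN was -0.01, 0.135 and -0.113. The lowest ELOVL6 array lay 0.12 above the signal filter, and whether dim signal limited its measured fall was not tested.

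ELOVL5, the elongase of the polyunsaturated branch, had the smallest spread of the 10 genes. ELOVL5 (ENST00000304434.10) measured 11.244, 11.282 and 11.307 in control cells and 10.471, 10.527 and 10.538 after boric acid. The 2 sets of arrays were 0.71 apart at their nearest. The means were 11.28 ± 0.03 and 10.51 ± 0.04 (SD, n = 3), a log2 fold change of -0.77 (standard error 0.08, 95% interval -0.96 to -0.57, limma adjusted p = 7.7e-04). The signal after boric acid was 58.8% of control.

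The desaturases had the largest changes of the group. SCD (ENST00000370355.2) measured 12.057, 11.669 and 11.787 in control cells and 9.602, 10.140 and 9.926 after boric acid. Replicate 1 was the highest of the controls and the lowest of the treated arrays, and the groups were 1.53 apart. The means were 11.84 ± 0.20 and 9.89 ± 0.27 (SD, n = 3), a log2 fold change of -1.95 (standard error 0.16, 95% interval -2.33 to -1.56, limma adjusted p = 3.5e-04), or 3.86-fold lower. Of the 33710 tested probe sets, 156 (0.463%) had a lower log2 fold change than SCD.

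FADS2 (ENST00000278840.8), the desaturase that opens the polyunsaturated branch, measured 8.991, 8.857 and 9.173 in control cells and 6.902, 7.805 and 7.353 after boric acid. The treated arrays were widely spread, with replicate 1 lowest, and the groups were 1.05 apart. The means were 9.01 ± 0.16 and 7.35 ± 0.45 (SD, n = 3), a log2 fold change of -1.65 (standard error 0.22, 95% interval -2.17 to -1.14, limma adjusted p = 0.0016), or 3.15-fold lower. Boric acid replicate 1 lay just over the signal filter of 6.888. The table gives no background level, so whether dim signal limited the measured fall on that array was not tested. Without boric acid replicate 1 the log2 fold change was -1.43, and it was still called (limma adjusted p = 7.7e-04).

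FADS1 (ENST00000350997.11), which acts after FADS2 and ELOVL5, measured 10.476, 10.353 and 10.519 in control cells and 9.172, 9.339 and 8.914 after boric acid. The groups were 1.01 apart. The means were 10.45 ± 0.09 and 9.14 ± 0.21 (SD, n = 3), a log2 fold change of -1.31 (standard error 0.13, 95% interval -1.60 to -1.01, limma adjusted p = 5.2e-04), or 2.48-fold lower. FADS1 and FADS2, which have annotated starts near each other on chromosome 11, were thus both more than 2-fold lower. Whether the measured transcripts use those starts is not given.

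**Figure D2:**
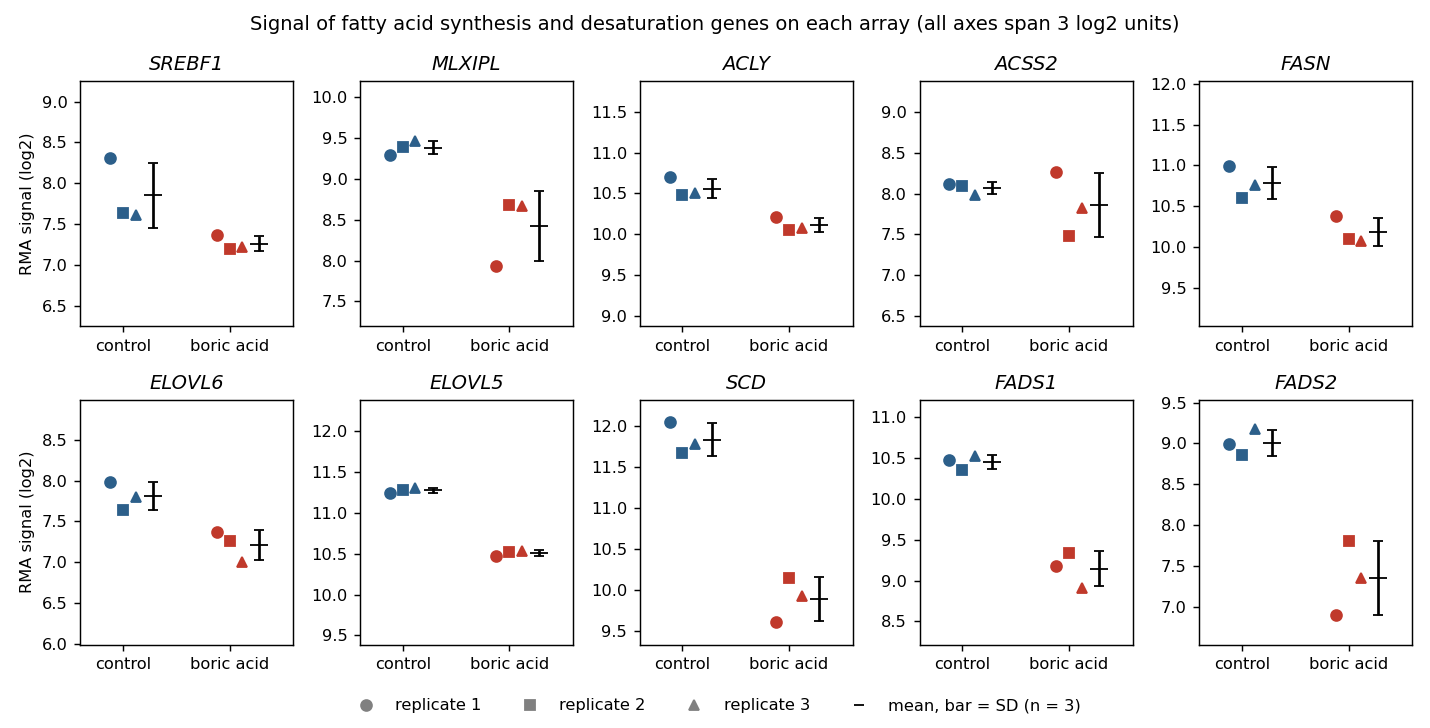
Each panel plots the RMA signal (log2) of 1 gene on the 3 control arrays (blue) and the 3 boric acid arrays (red), with marker shapes for replicates 1, 2 and 3 and a black mean with its SD (n = 3). All axes span 3 log2 units. The groups overlap in ACSS2 alone, where boric acid replicate 1 (8.271) is above the controls, and SREBF1 has 1 high control array (8.313).

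Ordered by change, from the largest fall, the genes were SCD, FADS2, FADS1, MLXIPL, ELOVL5, FASN, ELOVL6, SREBF1, ACLY and ACSS2. For each of the 9 neighbouring pairs, the difference between the genes was taken on every array and compared between groups. In 8 pairs these differences overlapped between treated and control arrays, and in FADS2 and FADS1 they did not, with FADS2 lower by a further 0.35 on the log2 scale. An exact permutation test of 3 against 3 arrays cannot give a two-sided p under 0.10, the value for FADS2 and FADS1 (0.72 after Benjamini-Hochberg adjustment over the 9 pairs), so it could not have separated any pair. Taken within replicate numbers, the first gene of a pair fell more in all 3 numbers in 3 of the 9 pairs. By this measure SCD fell more than FADS2 by 0.37, 0.48 and 0.04 in numbers 1, 2 and 3, FADS2 more than FADS1 by 0.79, 0.04 and 0.22, and ELOVL5 more than FASN by 0.17, 0.25 and 0.09. In the other 6 pairs the order turned in at least 1 number. The order was set by the means of these same values, so the first gene of a pair falls more on average by construction. The counts within numbers are therefore no test of the order. Between genes farther apart in the order, the 95% interval of SCD ended at -1.56. This was below the lower ends for MLXIPL (-1.43), SREBF1 (-1.04), ELOVL5 (-0.96), FASN (-0.92), ELOVL6 (-0.91), ACLY (-0.68) and ACSS2 (-0.65). The intervals of FADS2 and FADS1 overlapped that of SCD. These are separate intervals of genes read on the same arrays, and SCD was taken as the largest fall in these values. Differences between SCD and the genes farther down the order were not tested.

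Treated arrays varied more than control arrays in 7 of the 10 genes by SD, and boric acid replicate 1 was often at an edge. It was the lowest treated array for SCD, FADS2, MLXIPL and ELOVL5 and the highest for FASN, ACLY, SREBF1, ELOVL6 and ACSS2. Its difference from the mean of the other treated arrays was -0.74 for MLXIPL and -0.68 for FADS2, but 0.62 for ACSS2 and 0.30 for FASN. Control replicate 1 was the highest control array in 6 genes, the 5 in which boric acid replicate 1 was highest and SCD. In a group of 3 arrays only 1 holds the middle, so a place at an edge is common. Shares over all tested probe sets were not counted, so these spreads and positions describe the 10 genes only. No batch or RNA quality value is given in the labels, and whether or why these arrays stand apart was not tested.

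Compared within each replicate number, 29 of the 30 differences were below 0. For the 9 genes whose groups did not overlap the sign was fixed in advance, so only ACSS2 could differ. The exception was ACSS2 in number 1, at 0.15, with -0.61 and -0.16 in numbers 2 and 3. ELOVL5 gave -0.77, -0.76 and -0.77, and ACLY gave -0.49, -0.42 and -0.43, so these genes changed by about the same amount in each number. Other genes varied more between numbers. SREBF1 gave -0.95, -0.45 and -0.38, MLXIPL gave -1.36, -0.72 and -0.80, ELOVL6 gave -0.61, -0.38 and -0.80, and FASN gave -0.60, -0.51 and -0.68. Among the desaturases, SCD gave -2.46, -1.53 and -1.86, FADS2 gave -2.09, -1.05 and -1.82, and FADS1 gave -1.30, -1.01 and -1.61. The smallest fall was in number 2 for 8 of the 10 genes, all but SREBF1 and ACSS2, although by very little for ELOVL5 and ACLY. How many of all tested probe sets share this pattern was not counted.

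**Figure D3:**
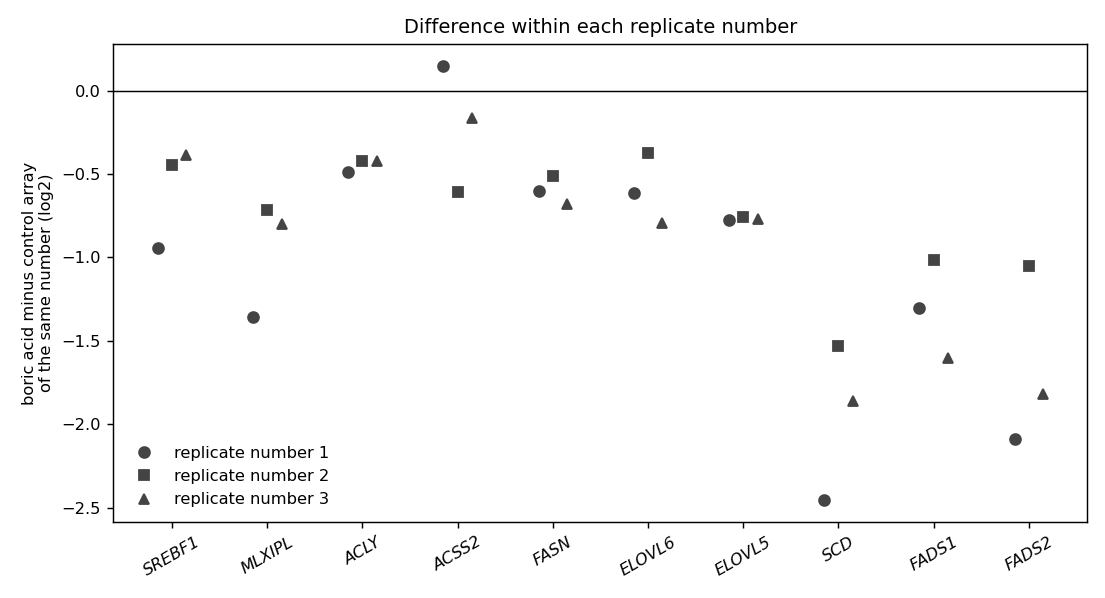
For each gene, the 3 markers give the log2 signal of a boric acid array minus that of the control array with the same replicate number. The line marks 0. Only ACSS2 has a marker above it (0.15, number 1), the markers of ELOVL5 nearly coincide, and those of SCD run from -2.46 to -1.53.

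**Figure D4:**
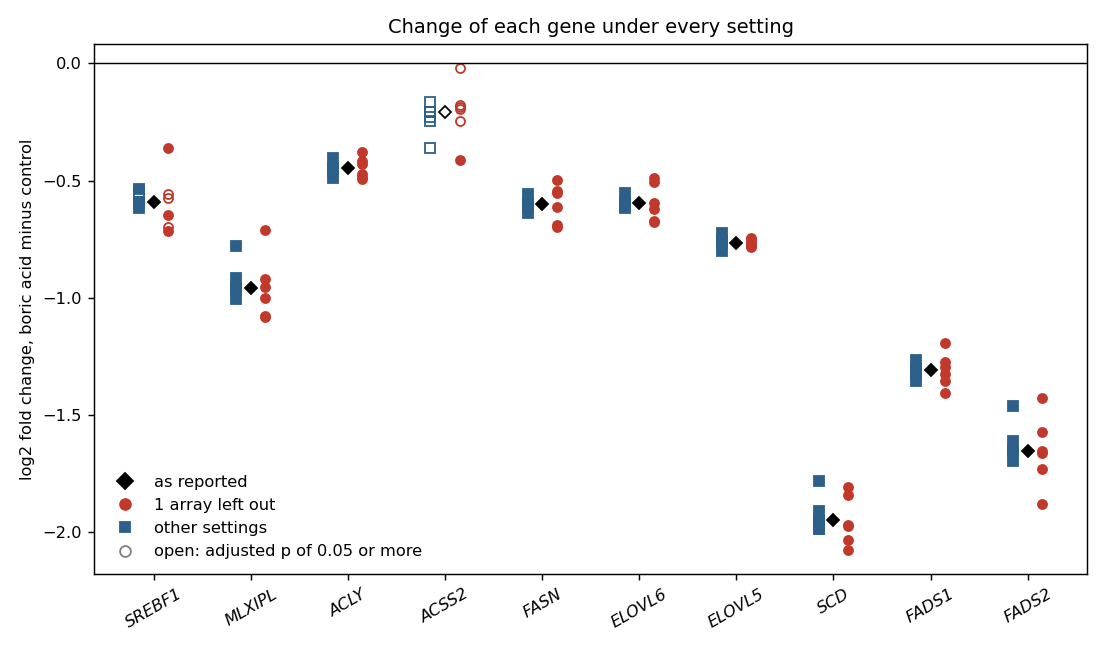
Log2 fold change of each gene (boric acid minus control) as reported (diamonds), with 1 array left out (red circles) and under the other settings tried (blue squares). Open markers have an adjusted p of 0.05 or more. All values lie below 0, and calls change in SREBF1 and ACSS2 only. ACSS2 ranges from -0.41 to -0.02.

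Leaving out an array or changing the processing did not turn the direction of any gene, as the plot of settings shows. Much of this was fixed in advance. For the 9 genes whose groups did not overlap, no array left out could have turned it. The signal filter, the variance model, repeated rows and the replicate block leave the log2 fold change as it is and can alter only the call. When 1 array was left out, the log2 fold change ranged from -2.07 to -1.80 for SCD and from -1.88 to -1.43 for FADS2. It ranged from -1.41 to -1.19 for FADS1 and from -1.08 to -0.71 for MLXIPL. ELOVL5 moved least, from -0.78 to -0.74. FASN ranged from -0.70 to -0.50, ELOVL6 from -0.68 to -0.49 and ACLY from -0.49 to -0.38. These 8 genes were called in every setting that tested them.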

How the data were processed

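Total RNA of 6 HepG2 samples was hybridised to Affymetrix gene arrays, per the labels. The authors ran RMA to make the deposited log2 values, per the submitters' processing notes, without a version. Their range, 2.557 to 13.78, shows the log2 scale. For the probe set definitions, build and annotation release, the sources used here give nothing. Members were matched by transcript ID. None of the 65527 IDs matched the reference table of 59792 genes (0 matches), so other genes of the pathway and the markers of liver and other cell types that were listed were not analysed here.

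Groups were fitted with limma 3.58.1 (lmFit, eBayes) in R 4.3.3, with no covariate, two-sided, and Benjamini-Hochberg adjustment over 33710 probe sets. The fit had 4 residual and 3.34 prior degrees of freedom and was tested on simulated data. Precision is limited by the number of arrays, with a median standard error of 0.12. Neighbouring genes were compared with exact permutation tests (scipy 1.17.1). All 10 members are named. Members, lists and tests were chosen with earlier results of these data known. Deviations from the group means correlated by 0.477, 0.174 and 0.195 between arrays numbered 1, 2 and 3, all over the limit of 0.1 for pairing. The labels state no pairing, and the reported values come from the fit without it; the block is an alternative. The correlation across numbers was higher for treated array 2 with control array 3 (0.376) and for treated array 3 with control array 2 (0.211). Alternatives were the signal filter, the scaling, the variance model, array weights, repeated rows, the replicate block and leaving out each array.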

Additional observations from a re-analysis of the deposited data

How the results depend on the processing

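Of 147 values of the 10 genes under the alternatives, none changed direction, which most of the settings could not have changed, and 141 kept their side of the threshold. The others were the 5 settings in which SREBF1 was not called and the 1 in which ACSS2 was called, given above. The filter at the 75th percentile did not test SREBF1, ELOVL6 and ACSS2. It also lowered the counts over all probe sets, since it tested 17458: 8194 were called, 3615 of them lower and 787 lower by at least 2-fold. With the replicate block, 9 members were called lower, SREBF1 among them (limma adjusted p = 0.016), ACSS2 was not (limma adjusted p = 0.31), and 16208 of all probe sets were called. The block changed no call of a member. Array weights moved SCD to -1.78, FADS2 to -1.46, MLXIPL to -0.78 and ACSS2 to -0.36. The list gave 1 transcript ID for each gene. Other probe sets that may read the same genes could not be looked up, so agreement between transcripts of a gene was not tested. The deposited values give no background from which a floor for dim signals could be set.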
